A study of Homo sapiens with 6 samples.

Results

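The genes described here are 7 inhibitors of cyclin-dependent kinases (CDKs) and the 3 members of the retinoblastoma family: CDKN1A, CDKN1B and CDKN1C of the CIP/KIP class, CDKN2A, CDKN2B, CDKN2C and CDKN2D of the INK4 class, and RB1, RBL1 and RBL2. They were taken by gene symbol from a table of 27788 symbols, and all 10 reached the mean of 1 FPKM (fragments per kilobase of transcript, scaled to sequencing depth) over the 6 libraries that a gene needed to be tested. The RNA came from the established human fibroblast line BJ, derived from foreskin, at day 8 of reprogramming with OCT4, SOX2, KLF4 and MYC (OSKM) delivered by lentivirus as the polycistronic O2S and K2M constructs. Cells were sorted on the surface proteins CD13 and CD201 into 3 groups of 2 libraries each: double-negative cells (CD13 negative, CD201 negative), CD201-only cells (CD13 negative, CD201 positive) and double-positive cells (CD13 positive, CD201 positive). All 3 groups carry the viral factors and had the same culture, with serum at first and later hESC medium (made for human embryonic stem cells) on Matrigel, and BJ cells without the factors were not analysed here. The labels do not say whether the 2 libraries of a group came from separate cultures, so the p-values measure the spread between libraries only.

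CDK inhibitors slow the cell cycle before DNA replication. INK4 proteins bind CDK4 and CDK6 and keep them from D-type cyclins, whereas CIP/KIP proteins bind complexes of cyclins with CDKs, above all those of CDK2. The kinases that they restrain phosphorylate the retinoblastoma proteins, which otherwise hold E2F transcription factors and their target genes in check. In fibroblasts some of these inhibitors, though not all 7, are known as effectors of senescence, a known barrier to reprogramming.

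The groups were well separated across all genes. The lowest correlation of log2(FPKM + 1) between replicates was 0.992 and the highest between groups was 0.981. FPKM summed to between 489152 and 521352 per library. Depth was estimated by taking the non-zero values of low genes as 1 fragment each, on an assumed fragment of 200 nt. The commonest implied depth was roughly 9.9 to 18 M fragments (M, mega) per library. The median implied depth was 8.03 to 11.2 M, so differences in depth between libraries are uncertain. The sorted transcripts followed the sort for CD13, with ANPEP at 35.7 and 36.2 FPKM in double-negative, 29.05 and 28.7 in CD201-only and 158 and 153 FPKM in double-positive cells. PROCR, which encodes CD201, was at 16.6 and 17.98 FPKM in double-negative cells, 45.8 and 49.1 in CD201-only cells and 51.3 and 52.5 FPKM in double-positive cells. Fibroblast genes were present in every group but lower without CD13. Of 11 tested fibroblast markers 10 fell and 1, THY1, rose in double-negative against double-positive cells. In CD201-only against double-positive cells 10 fell and 1, S100A4, rose, though quantile normalization left 0 that rose. The collagen gene COL1A1 averaged 305 ± 2.98 FPKM in double-negative cells, 244 ± 2.95 FPKM in CD201-only cells and 1691 ± 42.3 FPKM in double-positive cells (SD, n = 2 each).

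Summed inhibitor transcripts were fewest in double-negative cells and most abundant in double-positive cells, where CDKN1A made the difference from CD201-only cells. The 7 inhibitor genes summed to 419.8 and 423.8 FPKM in the double-negative libraries, 514 and 513 FPKM in the CD201-only libraries and 799 and 793 FPKM in the double-positive libraries. The share of that sum from CDKN1A averaged 75.1% in double-negative libraries, 76.5% in CD201-only libraries and 85.0% in double-positive libraries. The other 6 inhibitors summed to 104 and 106 FPKM in double-negative, 119.5 and 122 FPKM in CD201-only and 119.7 and 118 FPKM in double-positive libraries. The excess of double-positive over CD201-only cells in the sum of all 7 was therefore that of CDKN1A, and without it the libraries of these groups overlapped. In these bulk samples, fewer cells expressing a gene and less RNA per cell cannot be told apart.

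**Figure D1:**
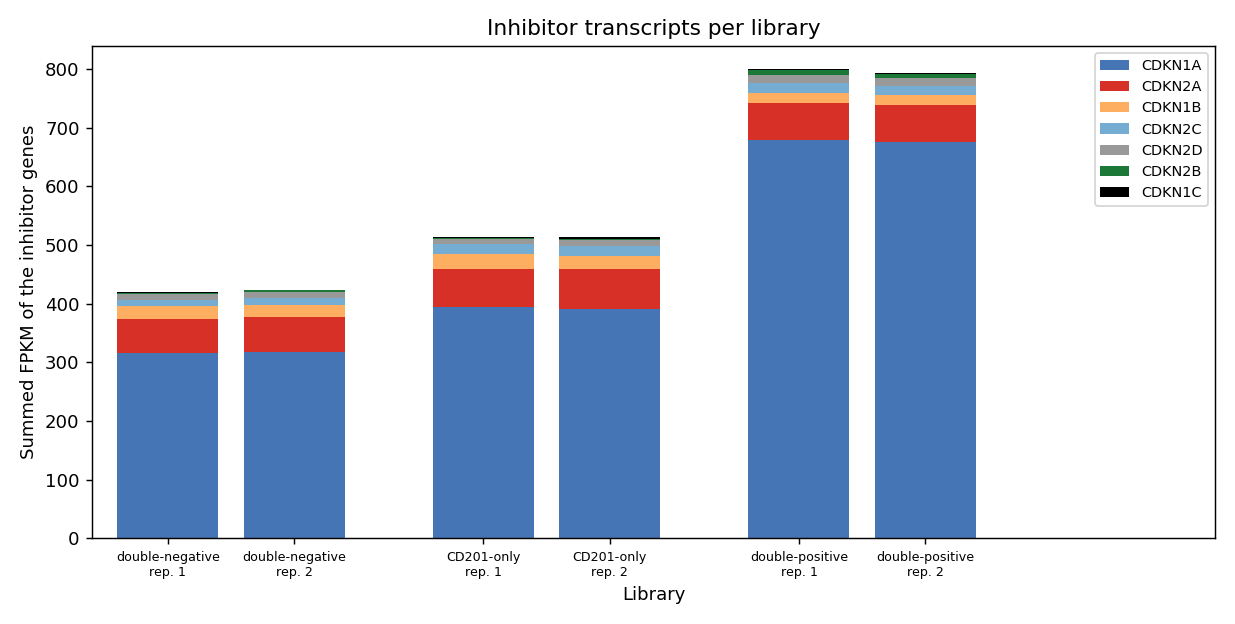
Stacked bars give the FPKM of the 7 CDK inhibitor genes, summed per library, on a linear axis from 0, with one bar for each of the 6 libraries. CDKN1A makes up the largest segment in every library, and the summed height is 419.8 and 423.8 FPKM in double-negative, 514 and 513 in CD201-only and 799 and 793 in double-positive cells.

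Within each group the order of levels was nearly fixed. CDKN1A ranked first, CDKN2A after it, then CDKN1B and CDKN2C, and CDKN1C and RBL1 were the lowest, in all 3 groups. CDKN1A was also among the most abundant of all transcripts, at rank 145 of 12210 tested genes by mean FPKM. CDKN2A was at rank 1297, and RBL1, at rank 12042, was close to the lower limit for testing. FPKM is per transcript length, so levels can be compared between genes, but only roughly, since the annotation that set the lengths is not given. Only neighbours in the middle of the order changed place. CDKN2D lay above RBL2 in double-negative and double-positive cells and below it in CD201-only cells, where the libraries had 8.53 and 9.32 FPKM of CDKN2D and 9.35 and 8.67 FPKM of RBL2 and so overlapped. CDKN2B lay below RB1 in double-negative and CD201-only cells and above it in double-positive cells, with no overlap between the libraries of these genes in any group.

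**Figure D2:**
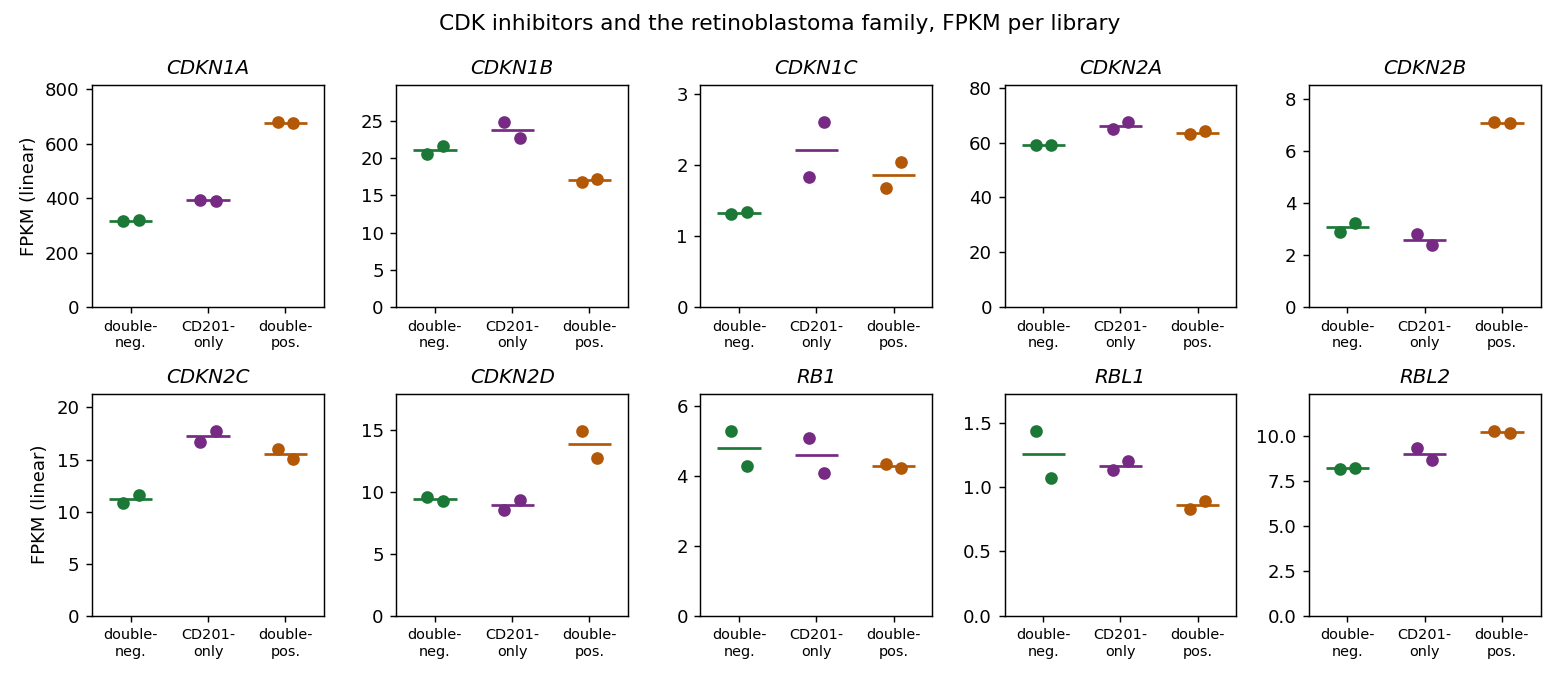
Each panel plots the FPKM of one gene on a linear axis from 0, with one point per library and a line at the mean of the 2 libraries of a group. CDKN1A, CDKN2B and CDKN2D stand highest in double-positive cells, CDKN1B stands lowest there, and CDKN2C stands lowest in double-negative cells.

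The groups were compared with limma on log2(FPKM + 1), and a gene was called at a Benjamini-Hochberg adjusted p under 0.05 over all 12210 tested genes. Limma called 7 of the 10 members between double-negative and double-positive cells, CDKN1B as higher and CDKN1A, CDKN2A, CDKN2B, CDKN2C, CDKN2D and RBL2 as lower. Of all tested genes 66.6% were called there, 42.1% as higher and 24.5% as lower. Between CD201-only and double-positive cells 5 members were called, CDKN1B as higher and CDKN1A, CDKN2B, CDKN2D and RBL2 as lower, where 58.7% of all genes were called, 35.8% as higher and 22.9% as lower. These comparisons share the double-positive libraries.

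Between double-negative and CD201-only cells 5 members were called, CDKN1A, CDKN1B, CDKN1C, CDKN2A and CDKN2C, all of them lower, where 37.9% of all genes were called, 21.5% as higher and 16.5% as lower. This count became 3 without the filter on low values, without double-negative replicate 1 and without double-negative replicate 2. A limma F test over the 3 groups called 8 members, all but RB1 and RBL1, and 73.0% of all genes. The shares of members called in the comparisons with double-positive cells are thus near those of all genes, and the values below describe the genes one by one. Groups that did not overlap were common: they were found for 9 of 10 members in double-negative against double-positive cells (83.3% of all genes), 8 in CD201-only against double-positive cells (79.3%) and 7 in double-negative against CD201-only cells (71.9%).

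The median log2 difference over the 10 members was -0.29 in double-negative and 0.06 in CD201-only against double-positive cells, and -0.14 in double-negative against CD201-only cells. Over all tested genes these medians were 0.11, 0.08 and 0.04. Rescaling the libraries by median ratios moved the medians of all genes to 0.00 in each comparison and the members' medians to -0.39, -0.02 and -0.18, so that the member median changed sign in CD201-only cells. It also moved the share of calls that were higher in double-negative than in double-positive cells to 48.0%, against 63.2% as deposited, and that in CD201-only against double-positive cells to 47.5%, against 61.0%. Under it 8 members were called between double-negative and double-positive cells, 1 as higher and 7 as lower.

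**Figure D3:**
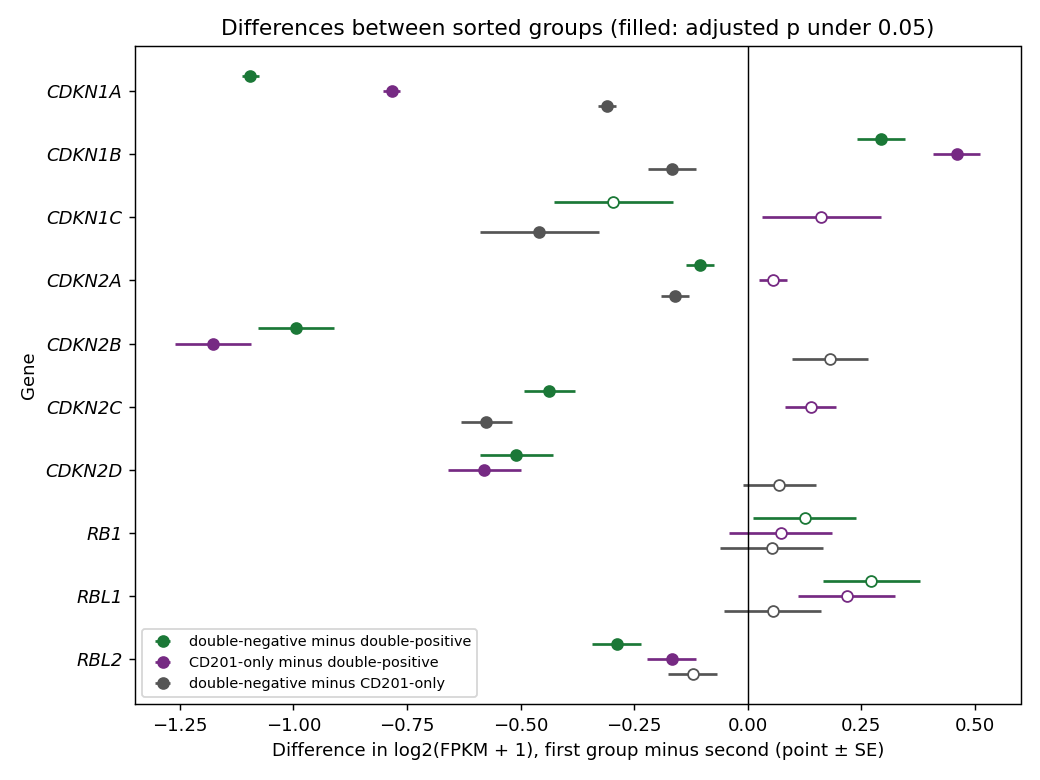
Points give the difference in log2(FPKM + 1) for each gene in the 3 comparisons, first group minus second, with bars of 1 SE, and filled points have an adjusted p under 0.05. CDKN1A and CDKN2B lie farthest to the left for double-negative minus double-positive cells, at -1.09 and -0.99, and CDKN1B lies to the right at 0.29.

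CDKN1A, which encodes p21, an inhibitor induced by DNA damage, showed the largest fall among the CIP/KIP genes against double-positive cells. It was at 315.3 and 318 FPKM in double-negative, 395 and 391 FPKM in CD201-only and 679 and 675 FPKM in double-positive cells. The groups were ordered without overlap, with double-negative cells lowest. The difference in log2(FPKM + 1) was -1.09 (standard error, SE, 0.0197, limma adjusted p = 6.13e-08) between double-negative and double-positive cells, and -0.78 (adjusted p = 2.95e-07) between CD201-only and double-positive cells. Double-negative cells were also lower than CD201-only cells, by a log2 difference of -0.31 (adjusted p = 3.79e-05). On the linear scale the CDKN1A mean of double-positive cells was 2.14 times that of double-negative cells and 1.72 times that of CD201-only cells.

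CDKN1B, which encodes p27, an inhibitor of CDK2 complexes that is largely controlled by protein turnover, went the other way. It was at 20.6 and 21.6 FPKM in double-negative cells, 24.8 and 22.7 in CD201-only cells and 16.8 and 17.1 FPKM in double-positive cells. All 4 libraries of the CD13-negative groups lay above both double-positive libraries. CDKN1B rose by a log2 difference of 0.29 (SE 0.0523, adjusted p = 0.00207) in double-negative and of 0.46 (adjusted p = 0.00027) in CD201-only cells, each against double-positive cells. Median-ratio rescaling reduced the first of these to 0.18 (adjusted p = 0.021). Between double-negative and CD201-only cells the log2 difference was -0.17 (adjusted p = 0.0431), a call that was lost without either double-negative library (adjusted p = 0.209 and 0.0859), without CD201-only replicate 1 (log2 difference -0.10, adjusted p = 0.217), without either double-positive library (adjusted p = 0.0537 and 0.0503), without the filter on low values (adjusted p = 0.0845) and without the variance trend (adjusted p = 0.0742). CDKN1A exceeded CDKN1B by 15.3 and 14.7 times in double-negative, 15.9 and 17.2 times in CD201-only and 40.3 and 39.4 times in double-positive libraries.

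CDKN1C, which encodes p57, the product of an imprinted gene, was near the limit for testing in every group. It was at 1.31 and 1.33 FPKM in double-negative, 1.83 and 2.60 in CD201-only and 1.68 and 2.04 FPKM in double-positive cells. Double-negative libraries were below all others, and the other groups overlapped. Double-negative against double-positive cells gave a log2 difference of -0.30 (SE 0.131, adjusted p = 0.0829), which was not called but passed the threshold once the libraries had been rescaled by median ratios (-0.37, adjusted p = 0.0395) and with only the libraries compared (adjusted p = 0.0412). It also passed without CD201-only replicate 1 (adjusted p = 0.0392) or replicate 2 (adjusted p = 0.0407), libraries that are not part of that comparison. CDKN1C fell in double-negative against CD201-only cells (log2 difference -0.46, adjusted p = 0.0311), but not without CD201-only replicate 2, the higher of the libraries (-0.28, adjusted p = 0.142), without either double-negative library (adjusted p = 0.121 and 0.109) or without the filter (adjusted p = 0.0827). Its log2 difference between CD201-only and double-positive cells was 0.16 (adjusted p = 0.32).

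CDKN2A encodes p16, an INK4 protein, and from another promoter and reading frame p14ARF, a tumour suppressor. The table has 1 row for the gene, so the products cannot be told apart here. RefSeq places their starts far apart on chromosome 9, on the minus strand, and the 250 bases before each start are shown because the single row does not separate the starts. Use of either start was not measured. Capitals mark GC boxes (GGGCGG on either strand), of which the first stretch holds 0 and the second 1, and neither stretch holds any of the E2F sites searched (TTTGGCGC, TTTCGCGC, TTTCCCGC and TTTGCCGC, either strand). In build GRCh38.p14 they are chr9:21995325-21995574 for the start farther upstream, that of p14ARF, and chr9:21974858-21975107 for the start of p16:
CDKN2A upstream start: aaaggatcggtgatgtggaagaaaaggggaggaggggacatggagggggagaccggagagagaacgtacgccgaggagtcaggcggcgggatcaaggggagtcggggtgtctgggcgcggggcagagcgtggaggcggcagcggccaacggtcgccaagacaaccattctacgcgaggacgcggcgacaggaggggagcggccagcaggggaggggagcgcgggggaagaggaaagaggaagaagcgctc
CDKN2A downstream start: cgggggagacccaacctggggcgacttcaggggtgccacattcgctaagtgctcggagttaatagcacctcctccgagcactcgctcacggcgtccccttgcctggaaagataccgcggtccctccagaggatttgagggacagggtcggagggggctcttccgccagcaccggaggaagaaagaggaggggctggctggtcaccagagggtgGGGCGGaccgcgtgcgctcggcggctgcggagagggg

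CDKN2A changed least among the INK4 genes against double-positive cells. It was at 59.3 and 59.0 FPKM in double-negative, 64.9 and 67.6 in CD201-only and 63.1 and 64.3 FPKM in double-positive cells. The double-negative libraries were the lowest, without overlap. In double-negative cells its log2 difference was -0.11 (SE 0.031, adjusted p = 0.0197) from double-positive and -0.16 (adjusted p = 0.00645) from CD201-only cells. In CD201-only against double-positive cells it was 0.06 (adjusted p = 0.164), and it turned to -0.03 (adjusted p = 0.431) under median-ratio rescaling. The same rescaling moved the difference of double-negative against double-positive cells to -0.23 (adjusted p = 0.000572). That call did not hold when double-negative replicate 1 (adjusted p = 0.0736) or 2 (0.0886) was left out, nor without double-positive replicate 2 (adjusted p = 0.0695) and without the variance trend (adjusted p = 0.0664).

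CDKN2B lies next to CDKN2A and encodes p15, an inhibitor known to be induced by TGF-beta. Against double-positive cells CDKN2B fell most among the INK4 genes. It was at 2.90 and 3.23 FPKM in double-negative, 2.80 and 2.38 in CD201-only and 7.12 and 7.07 FPKM in double-positive cells. Both double-positive libraries lay above all 4 others, and the double-negative libraries above the CD201-only ones. The log2 difference was -0.99 (SE 0.0837, adjusted p = 4.85e-05) in double-negative and -1.18 (adjusted p = 2.54e-05) in CD201-only cells, each against double-positive cells, and 0.18 (adjusted p = 0.132) between double-negative and CD201-only cells. The pseudocount of 1 compresses this low gene. On the linear scale the double-positive mean was 2.31 times that of double-negative and 2.74 times that of CD201-only cells, and with a pseudocount of 5 the log2 differences shrank to -0.58 and -0.67.

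CDKN2A exceeded CDKN2B by 20.4 and 18.3 times in double-negative, 23.2 and 28.4 times in CD201-only and 8.86 and 9.09 times in double-positive libraries, so that the double-positive libraries had the lowest ratios, without overlap. Of all runs of 50 bases in the CDKN2B transcripts of GENCODE 29, 31 also occur in CDKN2A transcripts, 0.765% of those of CDKN2B and 0.681% of those of CDKN2A. The antisense transcript CDKN2B-AS1 was at 0.118 and 0.55 FPKM in double-negative, 0.359 and 0.386 in CD201-only and 0.0368 and 0.227 FPKM in double-positive cells, too low to be tested. The libraries were stranded, but whether the counting used strand is not given in the sources used here. MTAP, a neighbour that encodes an enzyme of methionine salvage, rose in double-negative against double-positive cells (14.8 ± 0.424 against 11.9 ± 0.0598 FPKM, SD, n = 2 each, log2 difference 0.28, adjusted p = 0.00111), and its log2 difference in CD201-only cells was 0.10 (adjusted p = 0.0861). Median-ratio rescaling lowered these MTAP differences to 0.17 (adjusted p = 0.0142) and 0.02 (adjusted p = 0.724).

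The upstream stretches of CDKN1A and CDKN2B are shown because these genes had the largest falls against double-positive cells, in both CD13-negative groups. In build GRCh38.p14 the 250 bases before the RefSeq start lie at chr6:36678464-36678713 on the plus strand for CDKN1A and at chr9:22009306-22009555 on the minus strand for CDKN2B. Capitals again mark GC boxes:
CDKN1A: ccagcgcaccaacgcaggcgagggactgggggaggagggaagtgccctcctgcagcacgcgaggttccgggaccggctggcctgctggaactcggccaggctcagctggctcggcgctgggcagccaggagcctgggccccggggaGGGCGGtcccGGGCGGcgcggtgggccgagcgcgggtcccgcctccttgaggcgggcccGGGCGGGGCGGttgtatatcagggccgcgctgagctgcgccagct
CDKN2B: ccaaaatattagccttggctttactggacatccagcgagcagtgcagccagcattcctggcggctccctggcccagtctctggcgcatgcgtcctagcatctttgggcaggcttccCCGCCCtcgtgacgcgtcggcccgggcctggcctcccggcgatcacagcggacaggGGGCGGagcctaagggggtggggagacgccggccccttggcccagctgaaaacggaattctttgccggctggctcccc

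The CDKN1A stretch holds 4 matches to the GC box, a pair of which share a base, and the CDKN2B stretch holds 2. Other members with different patterns held them too, with 0 to 5 over the CDKN2C stretches, 2 in CDKN2D and 1 in CDKN1B. The stretches of RB1, RBL1 and RBL2 held 0. Of 35116 RefSeq stretches of the same length, 42.6% hold at least 1 such match. Neither stretch holds an E2F site as spelled above or a TATAAA.

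CDKN2C and CDKN2D, which encode the INK4 proteins p18 and p19, followed different patterns. CDKN2C was at 10.9 and 11.6 FPKM in double-negative, 16.7 and 17.8 in CD201-only and 16.01 and 15.1 FPKM in double-positive cells. Only the double-negative libraries were low, by a log2 difference of -0.44 (SE 0.0561, adjusted p = 0.000405) against double-positive and of -0.58 (adjusted p = 0.00028) against CD201-only cells. In CD201-only against double-positive cells the log2 difference of CDKN2C was 0.14 (adjusted p = 0.0689). CDKN2D was at 9.57 and 9.25 FPKM in double-negative, 8.53 and 9.32 in CD201-only and 15.0 and 12.8 FPKM in double-positive cells. Here both CD13-negative groups were low, with log2 differences from double-positive cells of -0.51 (SE 0.0801, adjusted p = 0.00112) in double-negative and -0.58 (adjusted p = 0.00072) in CD201-only cells. The difference was 0.07 (adjusted p = 0.528) between double-negative and CD201-only cells.

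In the retinoblastoma family, RBL2 fell, and RB1 and RBL1 did not pass the test in any comparison. RBL2 encodes p130, the member that is most abundant in resting cells and that binds E2F4 in the repressive DREAM complex. It was at 8.17 and 8.23 FPKM in double-negative, 9.35 and 8.67 in CD201-only and 10.3 and 10.2 FPKM in double-positive cells, with the groups ordered without overlap. Relative to double-positive cells the log2 difference of RBL2 in double-negative cells was -0.29 (SE 0.0542, adjusted p = 0.0027). For CD201-only cells it was -0.17 (adjusted p = 0.0327), a call lost without either double-negative library (adjusted p = 0.0586 and 0.0578), without CD201-only replicate 2 (adjusted p = 0.173), without either double-positive library (adjusted p = 0.102 and 0.0771) and with only the libraries compared (adjusted p = 0.0554). In double-negative against CD201-only cells it was -0.12 (adjusted p = 0.124), and quantile normalization brought it past the threshold (-0.16, adjusted p = 0.0478).

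RB1, which encodes the retinoblastoma protein itself, was at 5.29 and 4.29 FPKM in double-negative, 5.07 and 4.09 in CD201-only and 4.35 and 4.23 FPKM in double-positive cells. The groups overlapped, and the replicates of the CD13-negative groups differed from each other more than the group means did. From double-positive cells its log2 difference was 0.13 (SE 0.113, adjusted p = 0.357) in double-negative and 0.07 (adjusted p = 0.607) in CD201-only cells. Between double-negative and CD201-only cells it was 0.05 (adjusted p = 0.742). The difference of double-negative from double-positive cells was 0.00085 without double-negative replicate 1 and 0.25 without double-negative replicate 2, and 0.02 under median-ratio rescaling.

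RBL1 encodes p107, a family member of cycling cells whose gene is itself a known E2F target. It was at 1.44 and 1.07 FPKM in double-negative, 1.13 and 1.1996 in CD201-only and 0.832 and 0.892 FPKM in double-positive cells. All 4 libraries without CD13 lay above the double-positive ones. The log2 difference from double-positive cells was 0.27 (SE 0.107, adjusted p = 0.0571) in double-negative and 0.22 (adjusted p = 0.12) in CD201-only cells, so neither was called at this low level. The first was 0.16 (adjusted p = 0.267) without double-negative replicate 1, and it passed the threshold without double-negative replicate 2 (0.39, adjusted p = 0.0272), without the variance trend (adjusted p = 0.0323) and with the robust trend (adjusted p = 0.0468). Between double-negative and CD201-only cells it was 0.05 (adjusted p = 0.719), and these groups overlapped. RBL2 exceeded RBL1 by 5.68 and 7.67 times in double-negative, 8.27 and 7.23 times in CD201-only and 12.4 and 11.4 times in double-positive libraries.

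The stretch before the RBL1 start is shown because it was the only one of the 13 member stretches, over the 9 members found in RefSeq's table, that held an E2F site as searched. It lies at chr20:37095998-37096247 on the minus strand in GRCh38.p14, and capitals mark TTTCGCGC and TTTGGCGC:
RBL1: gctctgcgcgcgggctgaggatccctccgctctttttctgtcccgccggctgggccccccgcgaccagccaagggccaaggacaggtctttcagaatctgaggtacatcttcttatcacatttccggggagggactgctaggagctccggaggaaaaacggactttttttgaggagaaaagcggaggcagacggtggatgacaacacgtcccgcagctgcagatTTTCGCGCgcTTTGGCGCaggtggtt

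These sites start 26 and 16 bases before the RefSeq start and do not overlap. An E2F site in any of the 4 spellings occurs in 2.79% of the 35116 RefSeq stretches. No match in the other members says only that these letters are not in those 250 bases. Starts absent from the RefSeq table used were not searched. RB1 had only 1 stretch there, at chr13:48476200-48476449, with the lowest share of G and C of the member stretches (36.8%). Whether it lies before the main start of RB1 was not checked. Its letters, and the lack of GC boxes and E2F sites in it, therefore cannot be taken as those of the main RB1 promoter.

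Profiles of log2(FPKM + 1) over the 6 libraries are described by Pearson correlation, with no test, since the 6 points fall into 3 groups. CDKN1A ran with RBL2 (r = 0.963), CDKN2A with CDKN1C (0.962) and CDKN2C (0.955), and CDKN2B with CDKN2D (0.944). CDKN1B ran against CDKN2D (-0.947) and CDKN2B (-0.924). The 3 members with the largest F were CDKN1A, CDKN2B and CDKN2C. Among 8266 other genes whose mean reached 5 FPKM, those nearest in centred profile to CDKN1A were LGALS1 (root mean square difference of 0.0244 on the log2 scale), EMILIN1 (0.0283) and KCNAB2 (0.0323). Nearest to CDKN2B were ARHGEF40 (0.0446), MICA (0.0485) and HIST1H2AC (0.0488), and nearest to CDKN2C were GAMT (0.0383), ZNF703 (0.0386) and FLNC (0.0432).

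Among the kinases that the inhibitors bind, CDK4 rose by a log2 difference of 0.19 in each CD13-negative group against double-positive cells. CDK6 had log2 differences of 0.09 (adjusted p = 0.206) in double-negative and 0.20 (adjusted p = 0.0175) in CD201-only cells. Under median-ratio rescaling CDK4 was at 0.07 (adjusted p = 0.104) and 0.10 (adjusted p = 0.0232), CDK6 turned to -0.03 (adjusted p = 0.694) in double-negative cells and was 0.12 (adjusted p = 0.114) in CD201-only cells, and CDK2 was called as lower in double-negative cells (-0.17, adjusted p = 0.00527). CDK4, the more abundant of the INK4 targets, was at 94.5 and 92.8 FPKM in double-negative, 93.6 and 94.1 in CD201-only and 83.5 and 80.6 FPKM in double-positive cells. The summed INK4 FPKM over that of CDK4 and CDK6 was 0.793 and 0.814 in double-negative, 0.896 and 0.927 in CD201-only and 1.09 and 1.11 in double-positive libraries. CDK2, a target of p21 and p27, averaged 23.3 ± 0.279 FPKM in double-negative cells, 25.2 ± 0.242 FPKM in CD201-only cells and 24.1 ± 0.41 FPKM in double-positive cells (SD, n = 2 each), and its adjusted p was 0.267 and 0.192 against double-positive cells and 0.0513 between double-negative and CD201-only cells. CDK2, CDK4 and CDK6 stand outside the rule for named genes and were chosen after their values were seen. CDKN1A exceeded CDK2 by 13.6 and 13.5 times in double-negative, 15.8 and 15.4 times in CD201-only and 28.5 and 27.6 times in double-positive libraries. CCND1 encodes cyclin D1, the partner of CDK4. It was at 119.6 and 120.7 FPKM in double-negative, 157 and 153 in CD201-only and 291 and 287 FPKM in double-positive cells. Like CDKN1A it was ordered without overlap, with a log2 difference from double-positive cells of -1.26 (adjusted p = 7.81e-08) in double-negative and of -0.89 (adjusted p = 4.36e-07) in CD201-only cells.

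In what follows, pairs of log2 differences or medians are for double-negative and then for CD201-only cells, each against double-positive cells, and both rest on the same double-positive libraries. Of all tested genes 42.1% rose and 24.5% fell in double-negative cells, and 35.8% rose and 22.9% fell in CD201-only cells. The counts of each list below are to be read beside these shares. Of 10 tested G1 cyclins, CDKs and activators, 6 rose and 2 fell in double-negative against double-positive cells (median 0.24), and 6 rose and 2 fell in CD201-only against double-positive cells (median 0.26). Median-ratio rescaling made this 4 rose and 3 fell (median 0.13) in double-negative and 5 rose and 2 fell (0.18) in CD201-only cells. As deposited, the genes that fell were the D-type cyclin genes CCND1 and CCND3 in both, of which CCND3 was named after its values were seen. The phosphatase CDC25A, which activates CDKs, rose by 0.83 and 0.76, and CCNA2, cyclin A of S phase, by 0.63 and 0.64. Of 10 E2F and DP factors, 6 rose and 1 fell in double-negative and 5 rose and 2 fell in CD201-only cells (medians 0.25 and 0.18), with rises in E2F2, an activator (0.57 and 0.53), and E2F8, a repressor of the family (0.48 and 0.63). TFDP2, a DP partner, fell (-0.45 and -0.38). Median-ratio rescaling left 4 that rose and 2 that fell in each CD13-negative group, with medians of 0.13 and 0.098. All 17 listed E2F target genes rose in both comparisons with double-positive cells (medians 0.67 and 0.69), except that 16 were called in double-negative cells under median-ratio rescaling or quantile normalization. CDC6, which loads the replicative helicase, averaged 20.9 ± 0.398 FPKM in double-negative cells, 17.97 ± 1.05 FPKM in CD201-only cells and 9.79 ± 1.30 FPKM in double-positive cells (SD, n = 2 each). All 12 proliferation markers rose in both (medians 0.49 and 0.65), such as CCNB2, cyclin B of mitosis (0.76 and 0.87).

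Between the groups without CD13, the 17 E2F targets did not move as one: 3 rose and 4 fell in double-negative against CD201-only cells, with a median of -0.03, and 2 rose and 6 fell under median-ratio rescaling. Of the 12 proliferation markers 0 rose and 5 fell (median -0.11), namely MKI67, AURKB, PLK1, FOXM1 and TPX2, of which those outside the rule for named genes were named after their values were seen. Under median-ratio rescaling 8 of them fell, and under quantile normalization 6. Of all tested genes 21.5% rose and 16.5% fell in this comparison as deposited. The inhibitors CDKN1A, CDKN1B, CDKN1C, CDKN2A and CDKN2C were lower in double-negative cells in this same comparison, and the only called G1 gene was CCND1 (-0.36).

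The list of genes linked to DREAM and MuvB, complexes that can join p130 to its targets, is not confined to subunits found with p130, since it holds MYBL2. Of its 6 tested genes, 4 rose and 1 fell in double-negative cells against double-positive cells. In CD201-only cells 3 rose and 0 fell (medians 0.36 and 0.21). Median-ratio rescaling made these 3 and 1, and 3 and 0, with medians of 0.25 and 0.13. MYBL2, which replaces p130 in the activating form of the complex, averaged 113 ± 0.916 FPKM in double-negative cells, 134 ± 1.88 FPKM in CD201-only cells and 56.9 ± 2.33 FPKM in double-positive cells (SD, n = 2 each, log2 differences 0.98 and 1.22 against double-positive cells). Of 11 genes for the turnover of p27 and p21, 9 rose and 0 fell in double-negative cells and 7 rose and 1 fell in CD201-only cells (medians 0.30 and 0.23). Median-ratio rescaling made these 8 and 0, and 6 and 2, with medians of 0.19 and 0.15. SKP2, the ubiquitin ligase subunit that marks p27, was at 32.8 and 32.4 FPKM in double-negative, 42.8 and 39.7 in CD201-only and 19.8 and 21.1 FPKM in double-positive cells, with every library of the CD13-negative groups above the double-positive ones. Its cofactor CKS1B averaged 65.9 ± 0.537 FPKM in double-negative cells, 49.0 ± 2.59 FPKM in CD201-only cells and 32.9 ± 4.49 FPKM in double-positive cells (SD, n = 2 each).

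**Figure D4:**
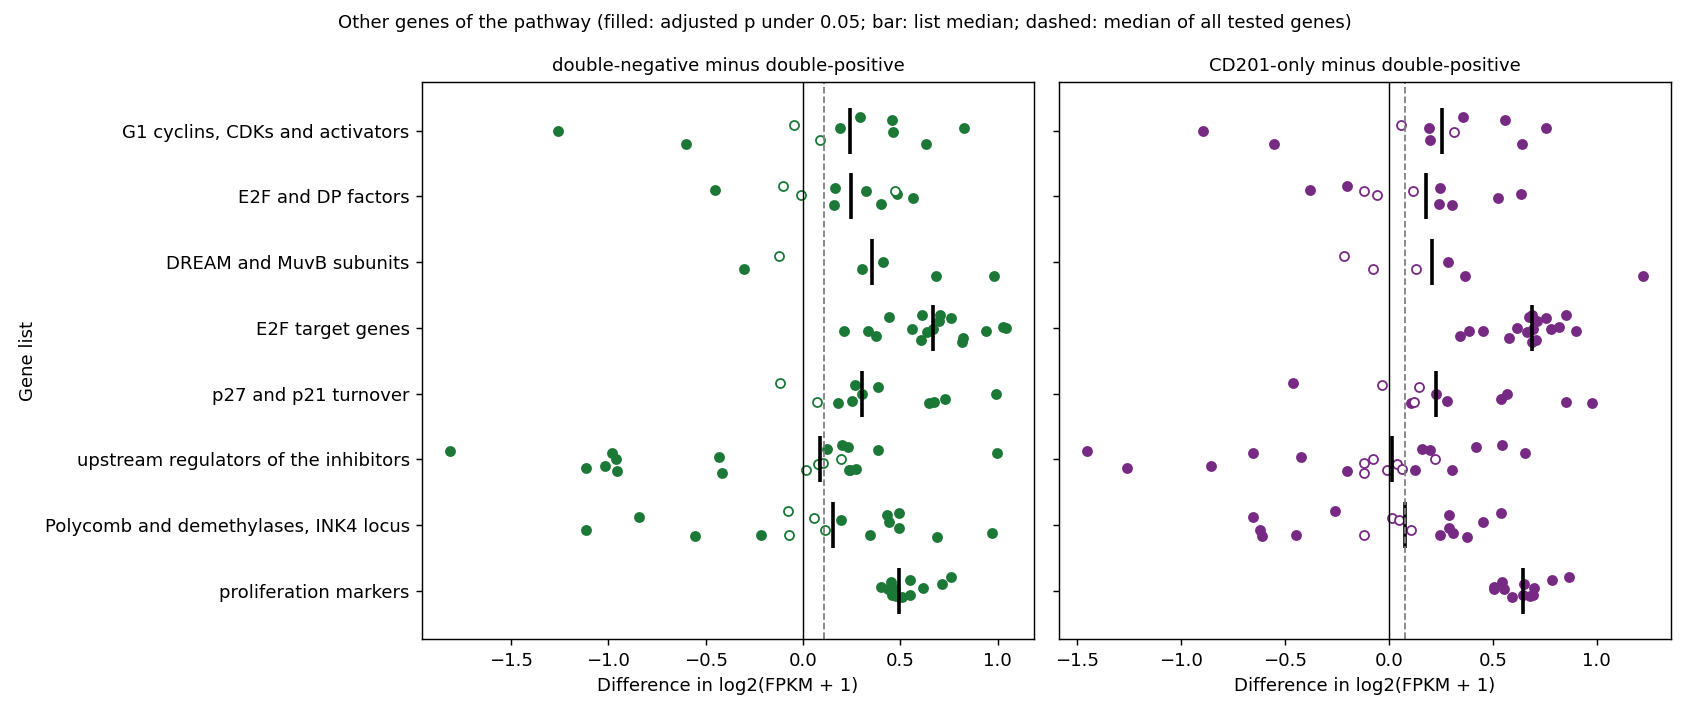
Points give the difference in log2(FPKM + 1) of each tested gene of 8 lists against double-positive cells, for double-negative cells on the left and CD201-only cells on the right, filled where the adjusted p is under 0.05. Black bars are list medians and the dashed line is the median of all tested genes, and the E2F targets lie wholly to the right of 0 while the upstream regulators spread to both sides.

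Upstream regulators of the inhibitors were split. Of 20 tested, 8 rose and 8 fell in double-negative and 7 rose and 6 fell in CD201-only against double-positive cells, and median-ratio rescaling made this 3 and 8 in double-negative and 5 and 8 in CD201-only cells, with medians that turned to -0.01 and -0.06, against 0.09 and 0.02. Against double-positive cells, the 3 largest changes in each comparison were falls in TGFB2, TGFBR2 and SMAD3. Between double-negative and CD201-only cells, ID1 (-0.89, adjusted p = 5.7e-06) and ID2 (-0.75, adjusted p = 5.27e-05), which encode inhibitors of helix-loop-helix factors, were lower in double-negative cells, and TGFBR2 was higher there. TGFB2, which encodes a TGF-beta ligand, averaged 1.54 ± 0.0298 FPKM in double-negative cells, 2.27 ± 0.204 FPKM in CD201-only cells and 7.93 ± 0.243 FPKM in double-positive cells (SD, n = 2 each). TGFBR2, which encodes a receptor for it, averaged 15.9 ± 0.299 FPKM in double-negative cells, 14.3 ± 0.707 FPKM in CD201-only cells and 35.5 ± 0.015 FPKM in double-positive cells. SMAD3, which encodes a transducer of TGF-beta signals, averaged 13.4 ± 0.0507 FPKM in double-negative cells, 15.1 ± 0.493 FPKM in CD201-only cells and 28.1 ± 0.139 FPKM in double-positive cells. All 3 were called as lower in both CD13-negative groups against double-positive cells. Of 16 Polycomb and demethylase genes known to control the INK4 locus, 8 rose and 4 fell in double-negative cells, and 7 rose and 5 fell in CD201-only cells, against 7 and 6 in double-negative and 4 and 6 in CD201-only cells under median-ratio rescaling. As deposited, 42.1% of all tested genes rose and 24.5% fell in double-negative cells, and 35.8% and 22.9% in CD201-only cells. The Polycomb counts are therefore not read as a trait of that list. CBX7, a Polycomb subunit that reads methylated histone H3, averaged 1.48 ± 0.0967 FPKM in double-negative cells, 2.51 ± 0.106 FPKM in CD201-only cells and 4.38 ± 0.146 FPKM in double-positive cells. PHC1, another subunit, went the other way and averaged 5.34 ± 0.383 FPKM in double-negative cells, 3.01 ± 0.155 FPKM in CD201-only cells and 2.23 ± 0.247 FPKM in double-positive cells (log2 differences 0.97, adjusted p = 6.7e-05, and 0.31, adjusted p = 0.0187). PHC2, a related subunit, averaged 57.1 ± 0.37 FPKM in double-negative cells, 65.2 ± 1.81 FPKM in CD201-only cells and 103 ± 5.28 FPKM in double-positive cells (SD, n = 2 each). CBX7 (-1.11 and -0.62) and PHC2 (-0.84 and -0.65) were called as lower in each comparison with double-positive cells, as was CBX6 (-0.55 and -0.61), which encodes a relative of CBX7.

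Summed markers of other cell types also differed between groups, but not all in the same order, and their part in the results was not tested. The 10 keratinocyte markers summed to 10.6 to 11.5 FPKM in double-negative, 19.7 to 19.9 in CD201-only and 42.9 to 44.5 FPKM in double-positive libraries, most of it from KRT14 in double-positive cells. DSC3 and LOR were at 0 in all libraries, and 7 of the 10 had a mean under 1 FPKM. The 8 blood cell markers summed to 33.5 to 35.1 FPKM in double-negative, 18.2 to 20.0 in CD201-only and 87.0 to 91.3 FPKM in double-positive libraries, with most from CD68 in double-positive cells, CD3E at 0 in all libraries and PTPRC under 1 FPKM. Of 3 tested blood cell markers 1 rose and 2 fell in each CD13-negative group against double-positive cells. The 8 endothelial markers summed to 19.7 to 20.0 FPKM in double-negative, 31.4 to 33.3 in CD201-only and 31.4 to 33.9 FPKM in double-positive libraries, with PECAM1 and CDH5 under 1 FPKM. KDR was instead highest in double-negative cells, with means of 3.06 FPKM there, 0.959 in CD201-only and 0.593 FPKM in double-positive cells. Of 4 tested endothelial markers 1 rose and 3 fell in double-negative, and 2 rose and 2 fell in CD201-only, against double-positive cells. The 10 markers of pluripotent cells summed to 2172 to 2174 FPKM in double-negative, 1430.1 to 1467 in CD201-only and 1212 to 1236 FPKM in double-positive libraries, mostly from POU5F1 and SOX2, which the vectors also carry and which the table does not split by origin.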

How the data were processed

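Poly-A RNA was sequenced as stranded libraries from 6 sorted samples, 2 in each of 3 groups, and the labels gave the group of each library. The authors deposited FPKM values for 27788 gene symbols, made with STAR and Cuffnorm on the builds GRCh37 and hg19, per the submitters' processing notes. Tool versions, the annotation, the use of strand in counting and the scaling option of Cuffnorm were not given in the sources used here. An FPKM value keeps no read count, so the depth in the report is approximate.

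Values were transformed to log2(FPKM + 1), a pseudocount of 1 that understates the change of low genes. Genes whose mean reached 1 FPKM were fitted in limma 3.58.1 (R 4.3.3), with a variance trend, a coefficient per group and all 6 libraries, leaving 3 residual degrees of freedom beside a prior of 3.95. P-values were adjusted by Benjamini-Hochberg over all tested genes in each comparison, and the procedure was tested on simulated data. Other pseudocounts, no filter, median-ratio and quantile scaling, other variance trends, fits of the compared libraries alone, a replicate block and leaving out each library were tried. Python 3.11.15 with pandas 2.3.3 and matplotlib 3.10.9 drew the plots.

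The members and the lists were chosen with earlier results of these data known. Named genes were all members, ANPEP, PROCR, fibroblast and pluripotent cell markers, and up to 3 called genes with the largest change per list and comparison. For the 3 members with the largest F, the 3 genes nearest in centred log2(FPKM + 1) were named. CDKN2B-AS1, the defining markers of other cell types, CDK2, CDK4, CDK6, CCND3 and some proliferation markers were named outside this rule. RefSeq sequences and coordinates are in GRCh38.p14 and carry no measured values. They were matched by symbol, for 9 of 10 members. Shared runs of 50 bases were counted in GENCODE 29 transcripts. Some items are not reported here.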

Additional observations from a re-analysis of the deposited data

How the results depend on the processing

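The member counts kept within 1.5 times their values as reported in the alternatives run, except between double-negative and CD201-only cells, where 5 became 3 without the filter on low values, and 3 to 4 over the fits that left out a library. Over all genes that comparison called 37.9%, against 23.7% and 24.9% without double-negative replicate 1 and 2. Leaving out 1 library at a time gave 6 to 8 members called between double-negative and double-positive cells, 4 to 5 between CD201-only and double-positive cells and 7 to 8 in the F test. With a replicate block the counts were 7 and 5 in the comparisons of double-negative and of CD201-only with double-positive cells, 4 between double-negative and CD201-only cells and 8 in the F test, and the lost call was CDKN1B in double-negative against CD201-only cells (adjusted p = 0.0604). Differences between replicates 1 and 2 correlated at 0.105, -0.123 and 0.146 between the groups over 8272 genes. These weak values gave no ground to pair the libraries by number. They cannot show whether same-numbered libraries came from one culture.

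Signs turned only for differences that were not called (log2 values). CDKN2A in CD201-only against double-positive cells was -0.0316 under median-ratio rescaling. Over the fits that left out 1 library, CDKN1C in that comparison ran from -0.0126 without CD201-only replicate 2 to 0.337 without CD201-only replicate 1. RB1 there ran from -0.0539 without CD201-only replicate 1 to 0.199 without CD201-only replicate 2. In double-negative against CD201-only cells RB1 was -0.0122 under quantile normalization, -0.0716 without double-negative replicate 1 and between -0.0732 and 0.18 without CD201-only replicate 2 and 1. RBL1 there was -0.0116 under quantile normalization and ran from -0.0624 without double-negative replicate 1 to 0.172 without double-negative replicate 2. The causes were not tested. FPKM near 1, as for RBL1 and CDKN1C, limits what 2 libraries a group can show.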
